A study of Rattus norvegicus with 16 samples.

Results

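This comparison sets the supraspinatus muscle of Sprague Dawley rats at 60 days after injury against that of unoperated rats, in 8 of the 16 libraries of the series: 4 labelled 60 days and 4 labelled 0 days (control). The injured rats had both supraspinatus muscles torn through their full thickness and underwent suprascapular neurectomy, which takes out a piece of the nerve that supplies this muscle; the controls had no operation. Strain and tissue are the same in both groups, and the labels give no age, sex, sham operation or batch. Nor do they say whether any 2 libraries came from the same rat, so that p-values measure the spread between these libraries. Libraries taken 10 and 30 days after the same operation, 4 each, entered the model and serve only to show where 60 days differs from earlier times. RNA from whole muscle was sequenced as polyA-selected libraries, and a level is given in CPM, the fragments of a gene per M (mega) fragments of the library's TMM-scaled total. A mean is followed by its SD over the 4 libraries of a group.

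The supraspinatus is a rotator cuff muscle that lifts the arm and steadies the shoulder. A tear of its tendon removes the load and the neurectomy removes the nerve input, and both lead to atrophy. In denervated muscle, fibres that had confined acetylcholine receptors to the synapse make them along their whole length again, fast glycolytic fibres lose mass, and fibro-adipogenic progenitors, the resident mesenchymal cells, can form scar tissue and fat. Schwann cells in a cut nerve shed their myelin, enter a repair state and can myelinate again if axons return. The 60-day libraries are the latest of the series.

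Library totals ran from 23.0 to 35.7 M fragments at 0 days and from 17.2 to 22.4 M at 60 days without overlap (exact permutation p 0.0286, two-sided, the smallest that 4 against 4 allows). With all libraries thinned to the smallest total, 6586 genes were called in place of 6880. The counts of replicate 1 at 60 days stood apart from its group: its chi-square per gene against the other 60-day replicates was 67.6 to 80.9, and among those 3 it was 13.9 to 24.5. Where a call described below was lost without it, or a count or fold moved by over 1.5 times, the value without it is given. The labelled tissue matched its markers, in that 7 skeletal muscle fibre genes summed to 179512 to 201571 CPM at 0 days and 96596 to 123845 CPM at 60 days. In RNA from whole muscle, fewer cells of a type and less RNA per cell cannot be told apart.

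Of 11658 genes tested, 6880 (59.0%) were changed at 60 days at an edgeR adjusted p under 0.05, of which 3489 (29.9% of those tested) were higher and 3391 (29.1%) lower. The levels of the 2 groups did not overlap for 50.0% of the genes. Changes of at least 2-fold were called for 1328 higher and 716 lower genes. The balance of directions depends on the scaling: 50.7% of the called genes were higher, against 63.6% with upper-quartile factors and 82.7% with library totals alone, which move the median fold change over all genes, on the log2 scale, from 0.040 to 0.18 and 0.45. Directions below are relative to the bulk of genes as TMM sets it. Beside each gene list, the shares of 29.9% higher and 29.1% lower and the median of 0.040 over all genes are the values to read it against; in parentheses are the counts of higher and lower genes under another scaling, test or filter that moved either by over 1.5 times and by 2 or more genes.

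**Figure D1:**
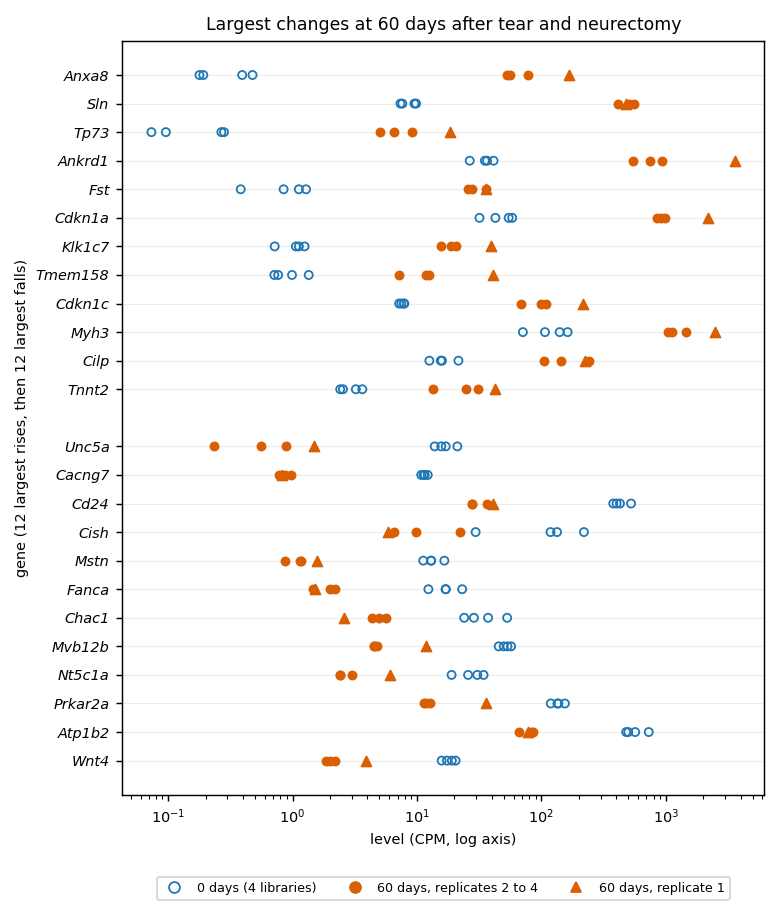
Level of the 12 genes with the largest called rise (upper rows) and the 12 with the largest called fall (lower rows), in CPM. The axis is a log axis and each point is 1 of the 8 libraries. Open circles are the 4 libraries at 0 days, filled circles are replicates 2 to 4 of 60 days, and the filled triangle is replicate 1 of 60 days. The 2 groups do not overlap for any gene shown. Replicate 1 is the highest 60-day library for most of these genes. Among the rises they are Anxa8, Tp73, Ankrd1, Cdkn1a, Klk1c7, Tmem158, Cdkn1c, Myh3 and Tnnt2. Among the falls they are Unc5a, Cd24, Mstn, Mvb12b, Nt5c1a, Prkar2a and Wnt4.

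Among the largest rises were an annexin, an inhibitor of the calcium pump, inhibitors of the cell cycle and embryonic or cardiac sarcomere genes. Anxa8, a calcium-dependent phospholipid-binding annexin, was at 0.394, 0.477, 0.178 and 0.192 CPM in the unoperated libraries and at 167, 53.0, 55.8 and 78.8 CPM at 60 days. Every 60-day library was above every control, replicate 1 highest, and the log2 fold change was 8.11 ± 0.50 SE, adjusted p 1.01e-08. Its fold rests on the few fragments of the control libraries. Sln, sarcolipin, a small membrane protein that inhibits the calcium pump of the sarcoplasmic reticulum, was at 9.84, 7.63, 9.55 and 7.38 CPM and then at 483, 505, 552 and 411 CPM. Here the 60-day libraries lay close together, and the log2 fold change was 5.83 ± 0.18 SE, adjusted p 1.68e-12. Ankrd1, a titin-binding ankyrin repeat protein of stretched muscle, was at 35.2, 41.3, 36.6 and 26.6 CPM and then at 3624, 748, 545 and 927 CPM. Replicate 1 held several times the Ankrd1 of the other 60-day libraries; the log2 fold change was 5.38 ± 0.58 SE, adjusted p 1.86e-06, and 4.40 without that library.

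Genes that restrain the cell cycle formed part of these rises. Cdkn1a, the cyclin-dependent kinase inhibitor p21, was at 58.4, 54.7, 42.7 and 31.9 CPM at 0 days and 2199, 852, 914 and 987 CPM at 60 days, a log2 fold change of 4.72 ± 0.31 SE, adjusted p 1.50e-08. The related inhibitor Cdkn1c (p57) rose from 7.62 to 123 CPM, by log2 4.01 ± 0.36, and Tp73, a transcription factor of the p53 family, from 0.180 to 9.83 CPM, by 5.81 ± 0.51. Without replicate 1 these 3 values were 4.29, 3.59 and 5.31. The other genes among the 12 were Fst (follistatin, which binds activin and myostatin), Tmem158, the embryonic myosin Myh3, the matrix protein Cilp, the cardiac and developmental troponin Tnnt2 and Klk1c7. Their log2 fold changes were 5.08, 4.26, 3.67, 3.44, 3.24 and 4.50 in the same order, and that of Tmem158 was 3.48 without replicate 1. Klk1c7 belongs to a kallikrein family of near-identical copies, among which the counting may have divided fragments.

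The largest falls included signals that limit muscle growth and a set of membrane proteins. Unc5a, a netrin receptor, was first among them: it was at 21.1, 13.9, 15.7 and 17.1 CPM at 0 days and at 1.48, 0.561, 0.234 and 0.889 CPM at 60 days (log2 -4.36 ± 0.39 SE, adjusted p 2.29e-07). Cacng7, of the calcium channel gamma subunit family, was at 11.3, 12.2, 11.6 and 10.8 CPM and then at 0.830, 0.785, 0.877 and 0.978 CPM (log2 -3.71 ± 0.21 SE, adjusted p 3.01e-09). All libraries of a group lay within a narrow range for this gene. Cd24, a lipid-anchored surface glycoprotein, went from 435 to 33.3 CPM (log2 -3.71 ± 0.33), and Atp1b2, a beta subunit of the sodium pump, from 570.4 to 78.0 CPM (log2 -2.87 ± 0.19). Wnt4, a secreted ligand, went from 18.2 to 2.48 CPM (log2 -2.85 ± 0.19). Prkar2a, a regulatory subunit of protein kinase A, was -2.92 (-3.52 without replicate 1 of 60 days), Nt5c1a, a cytosolic AMP phosphatase, -2.97, the glutathione-degrading enzyme Chac1 -3.03, Fanca of the Fanconi anaemia complex -3.28 and the ESCRT-I subunit Mvb12b -3.00 on the log2 scale. Cish and Mstn complete the 12 and are described with the growth signals.

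**Figure D2:**
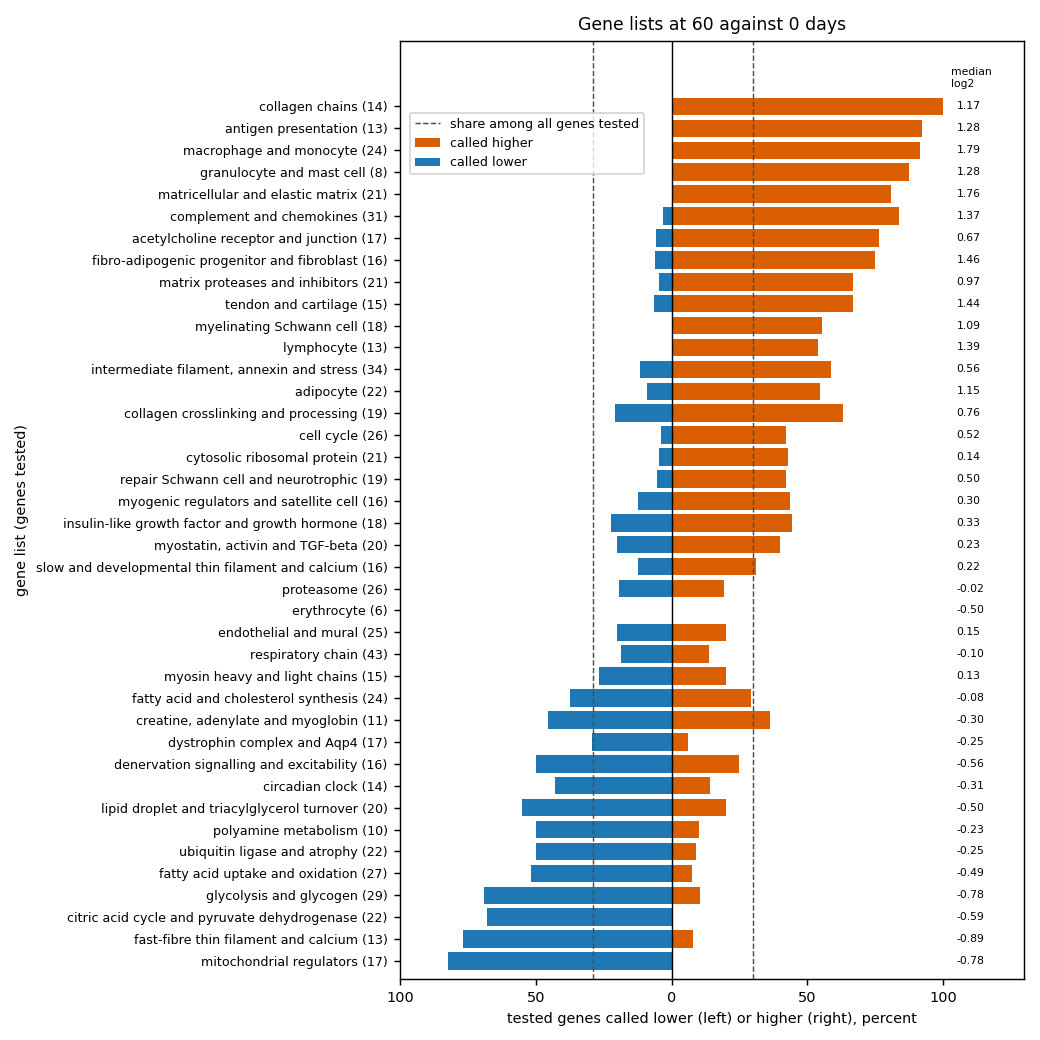
Share of the tested members of each of the 40 gene lists that were called higher (right) or lower (left) at 60 against 0 days, in percent; dashed lines mark the shares among all genes tested, 29.9% and 29.1%. Numbers at the right are the median log2 fold change of the tested members; the immune, matrix and fibroblast lists sit mostly at the right and the glycolysis, citric acid cycle and mitochondrial regulator lists at the left.

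At the neuromuscular junction most listed genes were above the unoperated level. In the list of receptor and junction genes 17 of 18 were tested, of which 13 were higher, 1 lower and 3 not called, with a median log2 fold change of 0.67. Chrng, the fetal gamma subunit of the acetylcholine receptor, was at 0.956, 0.917, 0.892 and 0.958 CPM at 0 days and at 6.64, 4.71, 2.75 and 7.24 CPM at 60 days. The groups did not overlap, and the log2 fold change was 2.54 ± 0.62 SE, adjusted p 0.00265, with an adjusted p of 0.0769 in limma-voom. At 30 days Chrng averaged 179 ± 141 CPM, and the log2 difference of 60 from 30 days was -5.05 ± 0.49 SE, adjusted p 8.21e-06. Chrna1, the alpha subunit that binds the transmitter, was at 19.7, 20.8, 19.01 and 13.9 CPM at 0 days and 91.6, 51.3, 26.5 and 57.5 CPM at 60 days (log2 1.63 ± 0.33 SE, adjusted p 0.000631), again without overlap. The adult epsilon subunit gene Chrne rose too (log2 1.21 ± 0.23), as did Musk, the receptor kinase that organizes the synapse (0.86 ± 0.26), its agrin-binding partner Lrp4 (0.97 ± 0.15) and the neuregulin receptor Erbb3 (1.41 ± 0.38). Ache, acetylcholinesterase, which breaks down the transmitter, fell (-0.73 ± 0.23), a call lost with library totals alone (-0.32). Of these members 2 were lower without replicate 1 of 60 days.

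The receptor genes are textbook targets of the myogenic factors MyoD and myogenin, which bind E-boxes, and CAGCTG is an E-box these factors prefer. The promoters of the gamma and alpha subunit genes are shown for that reason, as 250 bases before and 50 after the start of the gene from RefSeq (assembly GRCr8: chr9:95325734-95326033, plus strand, and chr3:78877304-78877603, minus strand), with CAGCTG in capitals. CAGCTG reads the same on both strands, and no matches overlap.
Chrng promoter: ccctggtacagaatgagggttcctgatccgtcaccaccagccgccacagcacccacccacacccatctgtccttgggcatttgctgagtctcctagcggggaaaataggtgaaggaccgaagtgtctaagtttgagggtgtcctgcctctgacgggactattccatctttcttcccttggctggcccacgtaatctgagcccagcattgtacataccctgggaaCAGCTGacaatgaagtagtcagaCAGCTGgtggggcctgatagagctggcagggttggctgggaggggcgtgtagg
Chrna1 promoter: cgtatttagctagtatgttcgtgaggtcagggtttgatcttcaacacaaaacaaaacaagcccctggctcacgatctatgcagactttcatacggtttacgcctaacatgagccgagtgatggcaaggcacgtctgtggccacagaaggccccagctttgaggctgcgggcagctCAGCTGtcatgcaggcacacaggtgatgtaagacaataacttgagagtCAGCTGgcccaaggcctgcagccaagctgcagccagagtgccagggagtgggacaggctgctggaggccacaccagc
Each holds 2 matches, and 1 lies in each of the Chrnb1 and Chrne windows and 0 in that of Chrnd. Of 33469 rat promoters of this length 15.1% hold at least 1 and 1.69% at least 2. A match is a description of letters and was not tested as a binding site.

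Myog, myogenin, the factor that drives late steps of muscle differentiation, was at 19.6, 28.3, 25.5 and 21.6 CPM at 0 days and 135, 116, 85.8 and 107 CPM at 60 days (log2 2.22 ± 0.15 SE, adjusted p 1.33e-08), with every 60-day library above every control. Among the myogenic and satellite cell genes 16 of 17 were tested, of which 7 were higher, 2 lower and 7 not called, with a median log2 fold change of 0.30. Myf5 (log2 1.14 ± 0.25) and the cytoskeletal gene Vim (1.11 ± 0.20) rose, while Pax7, the satellite cell factor, was 0.21 ± 0.37 (adjusted p 0.632). Desmin, Des, the intermediate filament that ties fibrils together, fell (-0.72 ± 0.10). Among the genes of denervation signalling and excitability 16 of 22 were tested, of which 4 were higher, 8 lower and 4 not called, with a median log2 fold change of -0.56. Gadd45a, a stress gene induced in denervated fibres, was at 176, 165, 144 and 137 CPM against 30.0, 22.4, 18.4 and 26.4 CPM at 0 days (log2 2.68 ± 0.23 SE, adjusted p 1.67e-07). Scn4a, the adult sodium channel of skeletal muscle, fell from 420.0 to 229.8 CPM (log2 -0.87 ± 0.12). Camk2a (-1.54 ± 0.15), a calmodulin-dependent kinase, and the potassium channel gene Kcna7 (-1.11 ± 0.29) fell as well. Hdac4, the histone deacetylase that relays loss of nerve input, was 0.33 ± 0.20 (adjusted p 0.159).

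Genes of the fast contractile apparatus were mostly lower, and those of the slow and developmental apparatus mostly not called. In the list of fast-fibre thin filament and calcium genes 13 of 15 were tested, of which 1 was higher, 10 lower and 2 not called, with a median log2 fold change of -0.89. Atp2a1, the fast calcium pump SERCA1, was at 44004, 49511, 44669 and 46166 CPM at 0 days and 15671, 13216, 14635 and 12504 CPM at 60 days (log2 -1.72 ± 0.15 SE, adjusted p 1.03e-07). Actn3, the Z-disc actinin of fast fibres, was at 17519.9, 17898, 16748 and 18079 CPM and then at 5146, 4469.9, 4830.2 and 4466 CPM (log2 -1.89 ± 0.19 SE, adjusted p 6.87e-07). In both genes each group held a narrow range with a wide gap between them. Jph1, which couples the surface membrane to the calcium store, fell by 1.85 on the log2 scale, Mybpc2, fast myosin-binding protein C, by 1.56 and the voltage sensor gene Cacna1s by 1.14. Of the fast troponins, Tnni2 was -0.23 ± 0.13 and Tnnt3 -0.22 ± 0.12 (adjusted p 0.139 and 0.137). Mybph, a myosin-binding protein, was the member that rose (2.03 ± 0.26).

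Among slow and developmental genes 16 of 16 were tested, of which 5 were higher, 2 lower and 9 not called (8 higher and 0 lower with library totals alone), with a median log2 fold change of 0.22. Of these members 1 was lower without replicate 4 of 60 days. The slow troponins Tnni1 (0.24 ± 0.24) and Tnnt1 (0.25 ± 0.19) were not called (adjusted p 0.400 and 0.257). Csrp3, a Z-disc protein that responds to stretch, was at 252, 175, 123 and 173 CPM at 0 days and 671, 568, 577 and 504 CPM at 60 days (log2 1.68 ± 0.21 SE, adjusted p 7.73e-06), with no overlap. The slow calcium pump Atp2a2 fell (-0.83 ± 0.21), a call lost with library totals alone (-0.43). Of the myosin genes 15 of 17 were tested, of which 3 were higher, 4 lower and 8 not called (7 higher and 4 lower with upper-quartile factors and 8 and 2 with library totals alone), with a median log2 fold change of 0.13. Myh4, of the fastest type IIB fibres, was at 43528, 49361, 35720.1 and 55111 CPM and then at 5058, 7799.9, 11078 and 9293 CPM (log2 -2.47 ± 0.23 SE, adjusted p 2.15e-07). The embryonic light chain Myl4 rose from 3.87 to 26.0 CPM (2.74 ± 0.41), and Mylk2, the kinase that phosphorylates the fast regulatory light chain, fell from 3604 to 934 CPM (-1.95 ± 0.18). Summed over each list, the fast-fibre genes held 158549 to 164927 CPM at 0 days and 80600.1 to 92011 CPM at 60 days, and the slow and developmental genes 16345 to 20362 and 14266 to 24761 CPM.

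**Figure D3:**
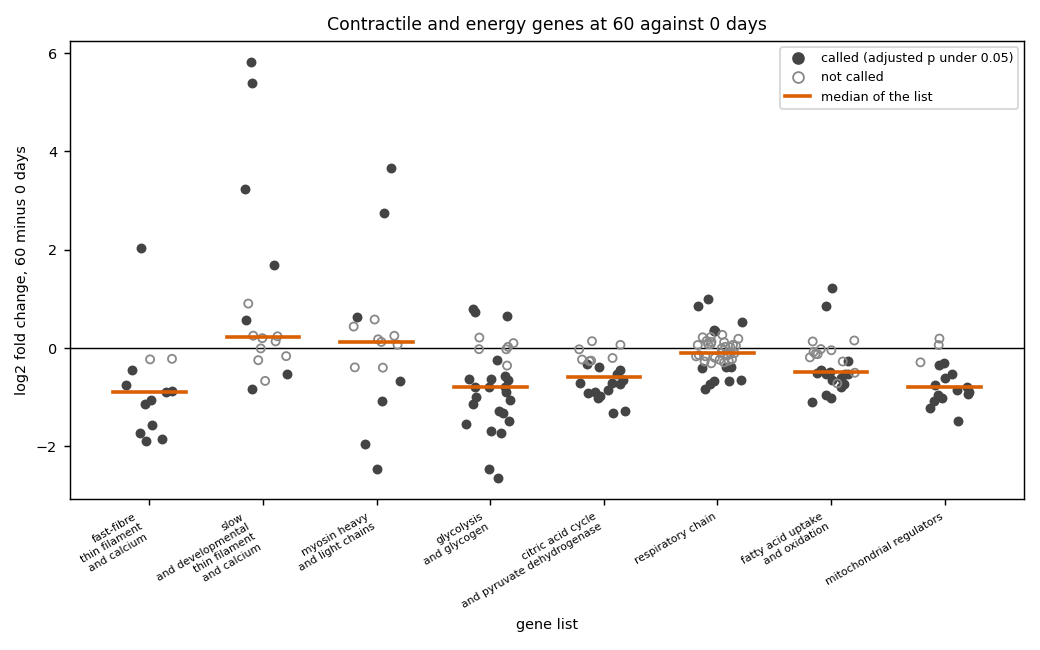
Log2 fold change at 60 against 0 days of each tested member of 8 lists of contractile and energy genes; filled points were called at an adjusted p under 0.05, open points were not, and the bar is the list's median. Glycolysis, citric acid cycle, mitochondrial regulator and fast-fibre genes lie mostly below 0, and respiratory chain genes lie around 0, with a median of -0.10.

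Growth signals changed in both directions. Mstn, myostatin, the muscle's own growth inhibitor, was at 13.0, 16.6, 11.2 and 13.0 CPM at 0 days and 1.57, 1.18, 0.877 and 1.16 CPM at 60 days (log2 -3.48 ± 0.35 SE, adjusted p 5.89e-07). Its antagonist Fst was at 1.12, 1.28, 0.848 and 0.383 CPM and then at 35.8, 27.9, 35.9 and 25.6 CPM (log2 5.08 ± 0.35 SE, adjusted p 2.59e-08). The groups did not overlap for either gene. In the myostatin, activin and TGF-beta list 20 of 22 were tested, of which 8 were higher, 4 lower and 8 not called, with a median log2 fold change of 0.23. The activin receptor gene Acvr2b (-0.89 ± 0.30) and the signal carrier Smad3 (-0.89 ± 0.18) fell; the Acvr2b call was lost with library totals alone (-0.48) and without replicate 4 of 0 days (adjusted p 0.0785). Ltbp2, a latent TGF-beta binding protein (2.32 ± 0.33), Gdf10 (2.26 ± 0.43) and Ctgf, the connective tissue growth factor (1.36 ± 0.22), rose.

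Of the insulin-like growth factor and growth hormone genes 18 of 18 were tested, of which 8 were higher, 4 lower and 6 not called, with a median log2 fold change of 0.33. Cish, a feedback inhibitor of the growth hormone receptor pathway, was at 119, 220.3, 134 and 29.7 CPM at 0 days and at 5.86, 6.56, 9.82 and 22.3 CPM at 60 days. The controls spread widely, but even the lowest of them was above the highest 60-day library. The log2 fold change was -3.48 ± 0.73 SE, adjusted p 0.000926, and -4.07 without replicate 4 of 60 days, the highest of its group. Ghr, the growth hormone receptor, was at 295, 287, 303 and 279.6 CPM and then at 130.2, 112, 108 and 92.1 CPM (log2 -1.39 ± 0.11 SE, adjusted p 4.64e-08), and Socs2, a further feedback inhibitor of that receptor, went from 15.5 to 7.68 CPM (-1.01 ± 0.19). Igf1, whose gene is a textbook growth hormone target, rose from 5.68 to 13.6 CPM (1.26 ± 0.18), as did Igf2 from 67.5 to 182 CPM (1.43 ± 0.29). Of their binding proteins, Igfbp4 (1.41 ± 0.23), Igfbp6 (1.20 ± 0.28) and Igfbp7 (1.07 ± 0.13) rose also, while Igfbp5 was called lower.

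Growth hormone acts through STAT5, which binds the sequence TTCNNNGAA, and Cish is a textbook STAT5 target. Its promoter is shown because Cish is among the largest falls (RefSeq, GRCr8, chr8:116850719-116851018, plus strand, 250 bases before and 50 after the start), with TTCNNNGAA in capitals. The motif reads the same on both strands, and no matches overlap.
Cish promoter: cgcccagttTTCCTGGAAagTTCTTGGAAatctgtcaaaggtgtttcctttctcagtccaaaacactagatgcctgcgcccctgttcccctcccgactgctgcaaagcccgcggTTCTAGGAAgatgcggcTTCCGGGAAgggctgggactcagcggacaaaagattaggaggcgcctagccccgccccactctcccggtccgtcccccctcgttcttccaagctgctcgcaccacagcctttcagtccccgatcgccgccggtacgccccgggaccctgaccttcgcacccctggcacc
The window holds 4 matches. Of 33469 rat promoters 8.87% hold at least 1, and 2 (0.00598%) hold at least 4, this one included. The Ghr and Igf1 windows hold 0, which says only that these letters are not in those windows. The activity of STAT5 was not measured.

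**Figure D4:**
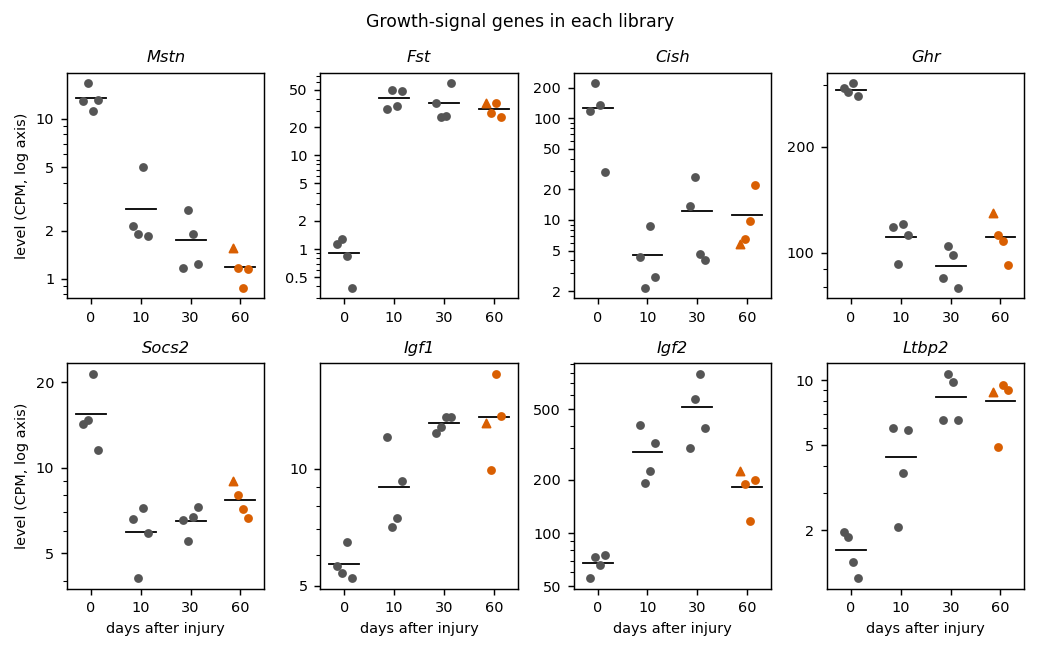
Level of 8 growth-signal genes in each of the 16 libraries by day after injury, in CPM on a log axis; points are libraries, bars are group means, and the filled triangle is replicate 1 of 60 days. Mstn, Cish and Ghr are below every control library at 60 days, and Fst, Igf1 and Igf2 are above every control library.

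More of the tested ubiquitin ligase and atrophy genes were lower than higher at 60 days, while most proteasome genes were not called. In the ubiquitin ligase and atrophy list 22 of 22 were tested, of which 2 were higher, 11 lower and 9 not called (5 higher and 9 lower with upper-quartile factors and 10 and 5 with library totals alone), with a median log2 fold change of -0.25; the median was 0.15 with library totals alone. Fbxo32 (atrogin-1), the ligase best known for its induction in atrophy, was at 69.0, 38.3, 46.5 and 49.1 CPM at 0 days and 27.6, 16.3, 16.02 and 10.9 CPM at 60 days, with every 60-day library below every control (log2 -1.51 ± 0.24 SE, adjusted p 7.51e-05). The ligase adaptor Asb2 (-1.74 ± 0.20) and the transcription factor Foxo4 (-1.49 ± 0.12) fell. The ligase gene Fbxo30 (1.29 ± 0.15) and Ctsl1, the lysosomal protease cathepsin L (0.50 ± 0.17), rose. Of these members 1 was higher without replicate 3 of 60 days. The gene then lost is Ctsl1 (adjusted p 0.0525). For the proteasome 26 of 26 were tested, of which 5 were higher, 5 lower and 16 not called (11 higher and 1 lower with upper-quartile factors and 22 and 0 with library totals alone), with a median log2 fold change of -0.015, or 0.39 with library totals alone and 0.13 with upper-quartile factors. Of these members 2 were lower without replicate 4 of 60 days and 3 without any of replicates 1, 3 or 4 of 0 days. In polyamine metabolism 10 of 12 were tested, of which 1 was higher, 5 lower and 4 not called (2 higher and 3 lower with upper-quartile factors and 5 and 2 with library totals alone), with a median log2 fold change of -0.23, or 0.18 with library totals alone. Amd1 (log2 -0.82 ± 0.082) and Smox (-1.01 ± 0.12), a synthetic and an oxidizing enzyme, fell, and Sat1, the acetylating enzyme that starts their breakdown, rose (0.99 ± 0.11). Of the cytosolic ribosomal protein genes 21 of 25 were tested, of which 9 were higher, 1 lower and 11 not called (19 higher and 0 lower with library totals alone), with a median log2 fold change of 0.14. Of these members 0 were lower without any of replicates 1, 3 or 4 of 0 days or any of replicates 2, 3 or 4 of 60 days. Rpl3 showed the largest change, from 87.3 to 186 CPM (log2 1.09 ± 0.20 SE, adjusted p 0.000227); Rps6, Rps9 and Rpl8 are listed at 0 in every library, which in genes that all cells use can be a failed estimate.

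Genes that break down glycogen and glucose were mostly below control. In this list 29 of 29 were tested, of which 3 were higher, 20 lower and 6 not called (7 higher and 15 lower with library totals alone), with a median log2 fold change of -0.78. Phka1, a regulatory subunit of the kinase that switches on glycogen breakdown, was at 641, 556, 566 and 529 CPM at 0 days and 138, 77.6, 85.2 and 66.3 CPM at 60 days (log2 -2.64 ± 0.21 SE, adjusted p 5.56e-08). Pygm, muscle glycogen phosphorylase, was at 15649, 16735, 16000.4 and 14888 CPM and then at 5120.2, 5733, 6292 and 4674 CPM (log2 -1.54 ± 0.18 SE, adjusted p 2.75e-06). No library of the 2 groups overlapped for either gene. The pacemaker enzyme Pfkm was -1.32, pyruvate kinase Pkm -1.48, the catalytic phosphorylase kinase subunit Phkg1 -1.72, hexokinase Hk2 -1.68 and Pfkfb3, which makes an activator of glycolysis, -2.45, all called. The isoforms that rose were Hk1 (0.64 ± 0.13), Pfkp (0.80 ± 0.19) and Pgam1 (0.73 ± 0.14), which are widespread in tissues other than muscle.

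Of the citric acid cycle and pyruvate dehydrogenase genes 22 of 23 were tested, of which 0 were higher, 15 lower and 7 not called (2 higher and 11 lower with library totals alone), with a median log2 fold change of -0.59. Ogdh (-1.28 ± 0.18), Dlat (-1.02 ± 0.10) and citrate synthase Cs (-0.98 ± 0.12) fell, as did Pdk2 (-1.32 ± 0.093), a kinase that switches pyruvate dehydrogenase off. In the respiratory chain 43 of 44 were tested, of which 6 were higher, 8 lower and 29 not called (11 higher and 5 lower with upper-quartile factors, 25 and 4 with library totals alone and 7 and 13 with only the 8 libraries), with a median log2 fold change of -0.10, or 0.31 with library totals alone, 0.044 with upper-quartile factors and 0.012 without replicate 1 of 60 days. Of these members 5 were lower without replicate 3 of 0 days or any of replicates 1 or 4 of 60 days. Sdha (-0.83 ± 0.10), Ndufs1 (-0.74 ± 0.12) and Uqcrc2 (-0.66 ± 0.10), large subunits of complexes II, I and III, fell. Cox8a (1.00 ± 0.084), Cox6a1 (0.86 ± 0.090) and Ndufs4 (0.54 ± 0.075), smaller subunits, rose. In fatty acid uptake and oxidation 27 of 28 were tested, of which 2 were higher, 14 lower and 11 not called (8 higher and 4 lower with library totals alone), with a median log2 fold change of -0.49. Acsl1 (-1.10 ± 0.14), which activates fatty acids, Fabp3 (-1.02 ± 0.26), which carries them in muscle, and Hadhb (-0.74 ± 0.12) fell, whereas Decr1 (0.86 ± 0.16) rose.

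None of the tested mitochondrial regulators was called higher: 17 of 18 were tested, of which 0 were higher, 14 lower and 3 not called (2 higher and 8 lower with library totals alone), with a median log2 fold change of -0.78. Mfn2 (-1.08 ± 0.13) and Mfn1 (-0.94 ± 0.086), which fuse mitochondria, fell together with Dnm1l (-1.02 ± 0.12), which divides them, and with the nuclear receptor gene Ppard (-1.23 ± 0.10). Among creatine, adenylate and myoglobin genes 11 of 12 were tested, of which 4 were higher, 5 lower and 2 not called (5 higher and 3 lower with library totals alone), with a median log2 fold change of -0.30, or 0.12 with library totals alone. The muscle creatine kinase Ckm (-0.81 ± 0.19) and adenylate kinase Ak1 (-1.11 ± 0.21) fell, and the brain-type creatine kinase Ckb rose (1.28 ± 0.19). Mb, myoglobin, rose as well (0.49 ± 0.14, edgeR adjusted p 0.00593). Of the 7 fibre markers it was the 1 called higher, and 5 were lower. Without replicate 1 of 60 days, the highest library for Mb, 3 genes of the list were higher in place of 4. The Mb value without that library is not reported here. Beside these lists, the summed level of 3 fibroblast markers (Pdgfra, Dcn and Lum) was 207 to 330.0 CPM at 0 days and 602 to 1181 CPM at 60 days, and that of 4 macrophage markers was 10.0 to 20.2 CPM at 0 days and 37.2 to 72.6 CPM at 60 days; their part in the falls of muscle genes was not tested.

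Among fat cell genes more rose than fell at 60 days. In the adipocyte list 22 of 26 were tested, of which 12 were higher, 2 lower and 8 not called, with a median log2 fold change of 1.15; 8 of the 22 were higher at 60 days than at each of 0, 10 and 30 days, against 2.82% of all genes. Adipoq, which encodes the fat cell hormone adiponectin, was at 3.54, 11.2, 19.6 and 11.1 CPM at 0 days and 33.4, 30.3, 66.5 and 59.6 CPM at 60 days (log2 2.05 ± 0.42 SE, adjusted p 0.000730). Every 60-day library was above every control, and against 30 days the difference was log2 1.92 ± 0.42 SE, adjusted p 0.00442. Lep, the hormone leptin, was at 0.675, 1.50, 2.59 and 0.671 CPM and then at 3.32, 2.08, 7.31 and 8.22 CPM (log2 1.92 ± 0.50 SE, adjusted p 0.00370), with replicate 2 of 60 days below the highest control. Retn, resistin, rose from 1.69 to 7.10 CPM (2.03 ± 0.46), and Cidec, a coat protein of the large lipid droplets of fat cells, from 3.66 to 13.4 CPM (1.85 ± 0.50). Cebpa, a transcription factor of fat cell formation, rose from 2.74 to 10.5 CPM (1.91 ± 0.29).

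Plin1, perilipin 1, which coats the fat cell's droplet, was at 2.02, 8.80, 12.8 and 4.22 CPM at 0 days and 15.4, 8.41, 27.6 and 21.6 CPM at 60 days (log2 1.37 ± 0.52 SE, adjusted p 0.0335). The groups overlapped, and the call was lost without replicate 1 (0.0837) or 4 (0.0835) of 0 days and without replicate 1 (0.0519), 3 (0.104) or 4 (0.0725) of 60 days (adjusted p in each case). Replicate 1 of 0 days was the lowest control for Adipoq, Plin1, Cidec and Retn. Gpd1, a glycerol-3-phosphate dehydrogenase that muscle fibres also make, went the other way: it was at 1623, 1616, 1599.9 and 1556 CPM and then at 317, 315, 323 and 310.1 CPM (log2 -2.34 ± 0.17 SE, adjusted p 2.73e-08), and the glycerol channel Aqp7 fell (-1.63 ± 0.39). All 4 Gpd1 values at 60 days lay close together. The 4 defining markers of the fat cell summed to 7.42 to 41.5 CPM at 0 days and 49.6 to 119 CPM at 60 days.

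The enzymes that build and break down triacylglycerol were mostly lower: 20 of 24 were tested, of which 4 were higher, 11 lower and 5 not called (6 higher and 6 lower with library totals alone), with a median log2 fold change of -0.50. Lpin1, the phosphatidate phosphatase of muscle, was at 101, 90.6, 80.2 and 71.8 CPM at 0 days and 17.5, 12.1, 10.3 and 10.4 CPM at 60 days (log2 -2.77 ± 0.16 SE, adjusted p 6.13e-09), with no overlap. Gpam (-1.55 ± 0.19), the entry enzyme of glycerolipid synthesis, and Abhd5 (-1.09 ± 0.16), the activator of the main triacylglycerol lipase, fell, and Lpin2 (0.80 ± 0.15) and Lpin3 (0.68 ± 0.13) rose. In fatty acid and cholesterol synthesis 24 of 26 were tested, of which 7 were higher, 9 lower and 8 not called (14 higher and 7 lower with library totals alone), with a median log2 fold change of -0.077, or 0.33 with library totals alone and 0.061 with upper-quartile factors. Fasn, fatty acid synthase, was at 4.84, 7.81, 8.52 and 5.32 CPM and then at 18.4, 20.1, 21.4 and 29.5 CPM (log2 1.75 ± 0.18 SE, adjusted p 7.33e-07), and the desaturase genes Scd (2.04 ± 0.21) and Scd1 (3.14 ± 0.31) rose; these are near copies, and the counting may have divided fragments between them. Acaca (-1.01 ± 0.11), which supplies Fasn with malonyl-CoA, the NADPH source Me1 (-1.30 ± 0.10) and the lipid synthesis factor Srebf1 (-0.95 ± 0.20) fell.

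Myelin genes that changed at 60 days were above control. Of the genes of myelinating Schwann cells 18 of 19 were tested, of which 10 were higher, 0 lower and 8 not called, with a median log2 fold change of 1.09, and 7 were higher at 60 days than at each other time. Mbp, myelin basic protein, was at 14.3, 17.8, 11.6 and 14.1 CPM at 0 days and 26.7, 32.1, 63.8 and 49.5 CPM at 60 days (log2 1.57 ± 0.28 SE, adjusted p 0.000214), and the means at 10 and 30 days were 5.76 ± 2.17 and 16.1 ± 3.81 CPM. The 60-day level was above that of 30 days by log2 1.41 ± 0.28 SE, adjusted p 0.00225. Pmp22, a compact myelin protein, was at 32.8, 46.3, 31.9 and 31.8 CPM and then at 62.7, 68.3, 115 and 116 CPM (log2 1.34 ± 0.21 SE, adjusted p 6.39e-05). For both genes every 60-day library was above every control, and replicates 3 and 4 were the highest.

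Cnp, an enzyme of myelinating cells, rose too (log2 1.39 ± 0.18), but its means of 78.5 ± 5.40 CPM at 10 days and 63.9 ± 13.4 CPM at 30 days were above the 52.7 ± 12.7 CPM of 60 days. S100b (1.38 ± 0.30), a calcium-binding protein of Schwann cells, rose. Without replicate 1 of 60 days, 13 of the 18 genes were higher in place of 10. Of the repair Schwann cell and neurotrophic genes 19 of 22 were tested, of which 8 were higher, 1 lower and 10 not called, with a median log2 fold change of 0.50. Ngfr, the low-affinity neurotrophin receptor of repair cells, was at 0.450, 0.990, 0.446 and 0.240 CPM and then at 2.95, 2.92, 2.05 and 4.53 CPM (log2 2.49 ± 0.43 SE, adjusted p 0.000142). Gap43 (1.25 ± 0.30), a growth cone protein, and Uchl1 (2.50 ± 0.24) rose, and Cntf fell (-0.55 ± 0.16; -0.14 and not called with library totals alone).

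**Figure D5:**
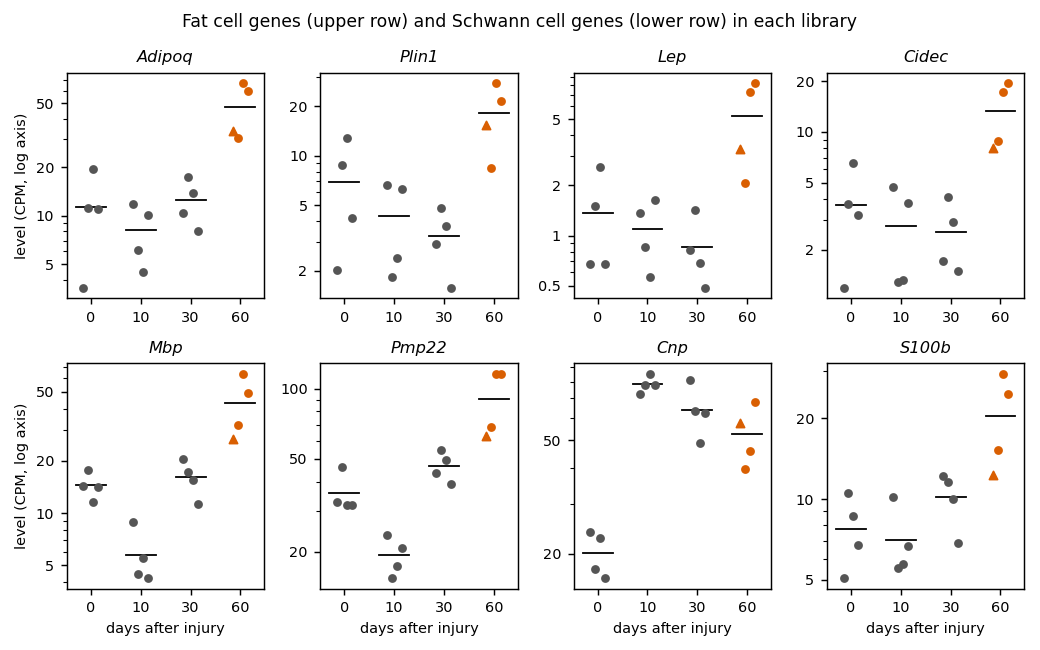
Level of 4 fat cell genes (upper row) and 4 Schwann cell genes (lower row) in each of the 16 libraries by day after injury, in CPM on a log axis; points are libraries, bars are group means, and the filled triangle is replicate 1 of 60 days. The 60-day mean is the highest of the 4 groups in every panel but that of Cnp, whose highest mean is at 10 days, and single libraries overlap those of 0 days for Plin1 and Lep.

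Matrix genes were mostly above control. Of the collagen chain genes 14 of 24 were tested, of which 14 were higher, 0 lower and 0 not called, with a median log2 fold change of 1.17; Col1a2 is listed at 0 in all libraries. Col14a1, a collagen of fibril surfaces, was at 15.4, 25.8, 18.9 and 21.6 CPM at 0 days and 47.4, 34.1, 83.9 and 83.2 CPM at 60 days (log2 1.60 ± 0.27 SE, adjusted p 0.000125). The network collagen Col8a1 (1.91 ± 0.30) and Col5a2 (1.28 ± 0.30), which sets fibril width, rose as well. In collagen crosslinking and processing 19 of 20 were tested, of which 12 were higher, 4 lower and 3 not called (15 higher and 1 lower with library totals alone), with a median log2 fold change of 0.76. The crosslinking oxidase Loxl1 (2.38 ± 0.28) and the procollagen proteinase Bmp1 (1.35 ± 0.17) rose, while P4ha1 (-0.92 ± 0.13), the main prolyl hydroxylase subunit, fell. In the matricellular and elastic matrix list 21 of 25 were tested, of which 17 were higher, 0 lower and 4 not called, with a median log2 fold change of 1.76. Cilp was at 15.9, 21.6, 15.6 and 12.6 CPM and then at 223, 105, 145 and 240.2 CPM (log2 3.44 ± 0.30 SE, adjusted p 1.96e-07), and Bgn, biglycan, rose from 30.6 to 147 CPM (2.26 ± 0.25).

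Among matrix proteases and inhibitors 21 of 25 were tested, of which 14 were higher, 1 lower and 6 not called, with a median log2 fold change of 0.97. Mmp2, gelatinase A (1.47 ± 0.25), and its inhibitor Timp1 (1.67 ± 0.32) rose. Mmp12, the macrophage elastase, was at 0, 0.0367, 0 and 0.0479 CPM at 0 days, at or below 3 counts per library, and at 2.26, 0.953, 3.10 and 11.9 CPM at 60 days. For the progenitor and fibroblast genes 16 of 19 were tested, of which 12 were higher, 1 lower and 3 not called, with a median log2 fold change of 1.46. Of these members 0 were lower without any of replicates 3 or 4 of 0 days or replicate 2 of 60 days. Pdgfra, the receptor that marks fibro-adipogenic progenitors, was at 9.11, 13.1, 9.28 and 8.38 CPM and then at 26.5, 23.1, 30.2 and 43.6 CPM (log2 1.62 ± 0.18 SE, adjusted p 1.68e-06), and Pi16, of a perivascular fibroblast population, rose from 9.98 to 36.0 CPM (1.84 ± 0.23). Of the tendon and cartilage genes 15 of 19 were tested, of which 10 were higher, 1 lower and 4 not called, with a median log2 fold change of 1.44. Comp (2.14 ± 0.32) and Runx2 (1.44 ± 0.28) rose. The 2 tested tendon markers went in opposite directions. Tnmd rose from 2.54 to 3.67 CPM at 0 days to 4.49 to 13.0 CPM at 60 days (1.55 ± 0.46). Scx, scleraxis, the transcription factor of tendon cells, was lower than at every other time. Scx was at 25.4, 24.6, 22.1 and 23.0 CPM at 0 days and 7.61, 6.56, 6.25 and 8.89 CPM at 60 days (log2 -1.69 ± 0.15 SE, edgeR adjusted p 1.21e-07). Its log2 difference from 30 days was -2.05 ± 0.15 SE, adjusted p 3.50e-07.

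Macrophage, antigen presentation and complement genes were mostly higher. Of the macrophage and monocyte genes 24 of 25 were tested, of which 22 were higher, 0 lower and 2 not called, with a median log2 fold change of 1.79. Cd68, a lysosomal protein of macrophages, was at 0.619, 1.87, 1.87 and 2.25 CPM at 0 days and 4.70, 4.21, 5.96 and 11.9 CPM at 60 days, replicate 4 highest. Gpnmb, a glycoprotein of lipid-laden macrophages, was at 5.68, 5.76, 6.20 and 7.90 CPM and then at 26.9, 22.3, 26.0 and 56.5 CPM (log2 2.37 ± 0.29 SE, adjusted p 6.94e-06). Clec10a (2.16 ± 0.16), Trem2 (1.94 ± 0.29) and Aif1 (2.05 ± 0.25) rose. In antigen presentation 13 of 17 were tested, of which 12 were higher, 0 lower and 1 not called, with a median log2 fold change of 1.28. Cd74, the invariant chain of class II molecules, rose from 42.5 to 129 CPM (1.61 ± 0.18), with RT1-Da (1.79 ± 0.23) and RT1-Db1 (1.78 ± 0.23), class II chains whose genes resemble each other and may share fragments.

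Of complement and chemokine genes 31 of 34 were tested, of which 26 were higher, 1 lower and 4 not called, with a median log2 fold change of 1.37. The complement component C4a rose from 11.8 to 53.4 CPM (2.16 ± 0.26) and C3 from 0.780 to 2.90 CPM (1.89 ± 0.38), and the chemokine gene Ccl6 rose (1.85 ± 0.31), while Cxcl12, a chemokine made by stromal cells, fell (-0.38 ± 0.084), a direction that flipped to 0.037 with library totals alone. Of the sparser types, 13 of 27 lymphocyte genes and 8 of 18 granulocyte and mast cell genes were tested, of which 7 and 7 were higher and 0 lower; without replicate 4 of 60 days 4 and 3 were higher. With genes of at least 1 CPM on average 3 and 3 were higher, and for lymphocytes 4 with only the 8 libraries and 11 with library totals alone. The 3 defining T cell markers summed to 0 to 0.491 CPM at 0 days and 0.393 to 1.64 CPM at 60 days, near the level that 3 counts give. Ptprc, the common leukocyte antigen CD45, rose from 3.17 to 9.35 CPM (1.56 ± 0.29).

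Most vessel genes were not called. Among endothelial and mural genes 25 of 26 were tested, of which 5 were higher, 5 lower and 15 not called (10 higher and 3 lower with upper-quartile factors, 15 and 2 with library totals alone and 3 and 5 with no filter on low counts), with a median log2 fold change of 0.15, and 14 were higher at 60 than at 30 days, as were 10.3% of all genes. Against 0 days, 2 were higher without replicate 1 of 0 days, 3 without replicate 3 of 0 days or any of replicates 2, 3 or 4 of 60 days and 8 without replicate 1 of 60 days, and 3 were lower without replicate 3 of 0 days. Cdh5, the endothelial cadherin, was 0.15 ± 0.16 (adjusted p 0.449). Lyve1, found on lymphatic vessels and some macrophages, was at 4.67, 6.09, 4.68 and 5.27 CPM at 0 days and 10.9, 11.3, 15.5 and 17.2 CPM at 60 days (log2 1.40 ± 0.17 SE, adjusted p 4.97e-06). The pericyte gene Rgs5 (-1.23 ± 0.12) and Angpt1 (-1.18 ± 0.19), a vessel-stabilizing ligand, fell. Pdgfrb, a mural cell marker, went the other way (0.46 ± 0.15, edgeR adjusted p 0.0149). None of 6 tested erythrocyte genes was called by edgeR, DESeq2 or limma-voom, and 0 had an unadjusted p under 0.05 in edgeR; without replicate 3 of 60 days 1 was lower. Replicate 3 of 0 days held the most erythrocyte RNA: the list summed to 745 to 2462 CPM at 0 days and 451 to 1109 CPM at 60 days.

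In the cell cycle list, which holds drivers and inhibitors, 26 of 27 were tested, of which 11 were higher, 1 lower and 14 not called (19 higher and 1 lower with library totals alone, 7 and 1 with genes of at least 1 CPM on average and 6 and 1 with only the 8 libraries), with a median log2 fold change of 0.52. Of these members 6 were higher without replicate 4 of 60 days and 7 without replicate 1 of 0 days. Besides Cdkn1a and Cdkn1c, the inhibitor genes Cdkn2b (1.52 ± 0.34), Cdkn2c (1.24 ± 0.21) and Cdkn2a (2.36 ± 0.58) rose, and the cyclin gene Ccnd2 fell (-1.21 ± 0.25). The 11 higher genes were not inhibitors alone: Aurkb, a mitotic kinase gene, was called higher too. Its value is not reported here. In the circadian clock 14 of 19 were tested, of which 2 were higher, 6 lower and 6 not called (5 higher and 3 lower with library totals alone), with a median log2 fold change of -0.31, or 0.090 with library totals alone. The clock-controlled repressors Bhlhe40 (-1.44 ± 0.17) and Nfil3 (-1.15 ± 0.28) fell and Npas2 (1.06 ± 0.31) rose; the labels give no time of day. Of the dystrophin complex genes and Aqp4 17 of 18 were tested, of which 1 was higher, 5 lower and 11 not called (6 higher and 5 lower with library totals alone), with a median log2 fold change of -0.25, or 0.15 with library totals alone. Of these members 8 were lower without replicate 1 of 60 days. Nos1, the nitric oxide synthase that dystrophin's complex holds at the membrane, was at 24.4, 15.5, 16.9 and 18.3 CPM at 0 days and 4.98, 4.15, 4.44 and 2.58 CPM at 60 days (log2 -2.22 ± 0.19 SE, adjusted p 1.32e-07), and Dmd, dystrophin itself, rose from 31.6 to 64.0 CPM (1.02 ± 0.25). Of intermediate filament, annexin and stress genes 34 of 36 were tested, of which 20 were higher, 4 lower and 10 not called, with a median log2 fold change of 0.56. Gpx3 (1.70 ± 0.12), a secreted peroxidase, and Hmox1 (1.29 ± 0.21), heme oxygenase, rose, and Sod2 (-0.95 ± 0.086), the mitochondrial superoxide dismutase, Atf4 (-0.95 ± 0.12) and the filament gene Synm (-0.98 ± 0.16) fell. Asns, in the same list, was called higher, and its value is not reported here.

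To show where 60 days differs from the earlier times, genes were counted whose 60-day level was called higher than that of each of 0, 10 and 30 days, or lower than each. Of 11658 genes 329 (2.82%) were highest and 383 (3.29%) lowest at 60 days by these 3 tests, 6.11% together; 60 days differed from 10 days in 61.1% and from 30 days in 22.6% of genes. Without replicate 1 of 60 days the counts were 552 and 830, and without replicate 2 or 4 of 60 days the number lowest was 242 or 235. Apart from Anxa8, Tp73 and Cdkn1c, the largest rises among them were in Crym, a thyroid hormone binding protein (log2 3.16 ± 0.23 against 0 days), Sncg, gamma-synuclein (3.09 ± 0.28), Bex1 (3.09 ± 0.18), Parm1 (2.61 ± 0.17) and the channel gene Panx1 (2.57 ± 0.26). Crym was at 3.15, 3.01, 3.44 and 2.54 CPM at 0 days and 21.2, 32.5, 24.6 and 30.6 CPM at 60 days, and replicate 1 was its lowest 60-day library. Its difference from 30 days, by which it was chosen, was log2 1.09. For Tp73, chosen in the same way, that difference was log2 0.95 (edgeR adjusted p 0.0485). The 60-day libraries of Tp73 were at 18.5, 6.51, 5.09 and 9.20 CPM, replicate 1 highest, and overlapped the 3.16 to 5.87 CPM of 30 days. Besides Wnt4 and Nos1, the largest falls were in Zfp238, a transcriptional repressor (-2.48 ± 0.16), Pm20d2 (-2.47 ± 0.20), Acadsb, which oxidizes branched acyl-CoA (-2.06 ± 0.16), Clip4 (-1.95 ± 0.20), Mdga1 (-1.93 ± 0.20) and Smpdl3b (-1.92 ± 0.21). Zfp238 was at 102, 107, 108 and 100.4 CPM and then at 26.8, 14.8, 17.4 and 15.4 CPM, and its log2 difference from 30 days was -0.80.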

How the data were processed

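The deposited table holds expected counts, the raw fragments per gene that the authors took from Cuffdiff, per the file header, with 1 column for each of the 16 samples; 233 genes had a fractional value and all values were rounded. The submitters' processing notes name bcl2fastq 1.8.4, FastQC, TopHat2 2.0.9, Bowtie2 2.1.0.0, Cufflinks, Cuffdiff 2.1.1 and build rn5; annotation, strandedness and filters are not given in the sources used here. Per the labels' protocols, RNA was extracted with a miRNeasy kit and made into libraries with a TruSeq mRNA kit, which does not mark strand, so that a gene and an antisense partner cannot be told apart. Of 17147 genes, 11658 passed filterByExpr and were tested in 1 model of all 16 libraries with edgeR 4.0.16 (quasi-likelihood, TMM, Benjamini-Hochberg) in R 4.3.3; limma 3.58.1 and DESeq2 1.42.0 served as alternatives, and figures and motif searches used Python 3.11.15 and matplotlib 3.10.9. The test was run on simulated data in which 200 genes changed 2-fold, far fewer than the 6880 called here. That setting cannot check how the scaling acts where most genes change. Log2 fold changes are given ± SE. Counting precision follows the totals of 17.2 to 35.7 M fragments, where 3 counts correspond to at most 0.175 CPM in the libraries compared.

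The groups follow the time and treatment labels; the column suffix numbers libraries from 0 to 3 and is counted here from 1. Genes named are the 12 largest rises and 12 largest falls among called genes with a mean of at least 5 CPM and no overlap, the 8 largest in each direction among genes apart from all other times, and, in each of 40 lists (777 genes tested of 887), the first 2 members, up to 6 further called members with the largest change and called members that go against the list. Some genes that this rule names are not reported here. Chrnb1 and Chrnd, named for their promoter windows, were chosen after their values were seen. The comparison and the lists were chosen with earlier results of these data known. Promoters and gene names came from RefSeq (GRCr8), in which 14500 of the 17147 symbols were found.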

Additional observations from a re-analysis of the deposited data

Results flagged for a closer look

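Each named gene, each summed marker level and 3 library measures were searched for a library whose gap to its group's nearest library took more than 0.829 of the group's range, which chance gives in about 1 of 20 groups of 4. Asns, Aurkb, Mb and Pdgfrb were left out of this search. Of 428 groups 34 (7.94%) held such a library, and in 16 of them it was replicate 1 of 60 days.

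In that library 16 genes stood above the other 60-day libraries. Among them were Ankrd1 at 3624 CPM (545 to 927 in the others), Cdkn1a at 2199 CPM (852 to 987 in the others), Panx1 at 94.6 CPM (36.2 to 43.4 in the others), Parm1 at 14.4 CPM (8.64 to 9.47 in the others), Tmem158 at 40.7 CPM (7.19 to 12.5 in the others), P4ha1 at 52.8 CPM (34.1 to 36.9 in the others) and Wnt4 at 3.92 CPM (1.85 to 2.18 in the others). The remaining genes were Camk2a at 34.0 CPM (25.0 to 25.8 in the others), Clip4 at 32.3 CPM (16.3 to 17.6 in the others), Dmd at 110.4 CPM (46.7 to 51.2 in the others), Dnm1l at 46.8 CPM (30.8 to 33.3 in the others), Hdac4 at 24.8 CPM (11.8 to 13.3 in the others), Jph1 at 110.1 CPM (43.6 to 50.3 in the others), Mvb12b at 11.8 CPM (4.49 to 4.73 in the others), Nt5c1a at 6.09 CPM (2.40 to 2.98 in the others) and Prkar2a at 36.1 CPM (11.3 to 12.6 in the others). For genes that fell, such as Prkar2a, Mvb12b and Jph1, this library stood nearest to the controls.

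At 60 days, replicate 2 was low for Col8a1 at 4.15 CPM against 7.13 to 7.69 CPM and Ltbp2 at 4.88 CPM against 8.85 to 9.53 CPM. Replicate 4 of 60 days was high for the macrophage genes Aif1 and Gpnmb and for Ckb, with Aif1 at 11.6 CPM against 5.27 to 6.08 CPM, Ckb at 49.2 CPM against 29.3 to 32.3 CPM, Gpnmb at 56.5 CPM against 22.3 to 26.9 CPM, summed T cell markers at 1.64 CPM against 0.393 to 0.461 CPM and summed cartilage markers at 1.07 CPM against 0.505 to 0.599 CPM.

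At 0 days, replicate 1 was high for Mybph at 163 CPM against 70.6 to 84.5 CPM and low for Ccl6 at 0.506 CPM against 1.52 to 1.63 CPM, Cd74 at 35.5 CPM against 44.0 to 45.7 CPM and Cntf at 4.55 CPM against 5.21 to 5.31 CPM. Replicate 2 was high for Ckb at 18.1 CPM against 13.0 to 13.3 CPM, Mfn2 at 629.5 CPM against 551 to 557 CPM, Pmp22 at 46.3 CPM against 31.8 to 32.8 CPM and summed mast cell markers at 2.31 CPM against 1.07 to 1.25 CPM. Replicate 3 was high for summed erythrocyte markers at 1951 CPM against 600.1 to 668 CPM. Replicate 4 was high for Dmd at 42.0 CPM against 26.7 to 29.2 CPM and low for Srebf1 at 211 CPM against 274 to 285 CPM.

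For Adipoq, Mbp, Chrng and Scx, whose 30-day difference the text gives and which were picked for it after their values were seen, the effect at 60 days against 0 days differed from the effect at 30 days by the test of the difference itself, in which the controls cancel. The log2 difference was 1.92 for Adipoq and 1.41 for Mbp, which were higher at 60 days, and -5.05 for Chrng and -2.05 for Scx, which were lower (edgeR adjusted p 0.00442, 0.00225, 8.21e-06 and 3.50e-07).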

How the results depend on the processing

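Of the 6880 genes called changed at 60 days, the number ran from 6349 with only the 8 libraries of 0 and 60 days to 8144 with library totals alone over the other normalizations, tests, filters and thinned counts, and from 6051 to 7152 with 1 library left out. The directions depended on the scaling: with library totals alone 6737 genes were higher and 1407 lower, as were 477 and 107 of the list members, against 312 and 185. Genes lower at 60 days than at every other time numbered 240 with library totals alone in place of 383, and 235 to 830 with 1 library left out; those higher numbered 236 to 552 in place of 329, most in both cases without replicate 1 of 60 days. The cause was not tested. Of 189 named genes that were called, 5 lost the call with library totals alone, of which Cxcl12 turned to 0.037, and 0 with RLE or upper-quartile factors, the 8 libraries alone, a higher filter, the title letter as a covariate or thinned counts. Asns, Aurkb, Mb and Pdgfrb are not among the 189. Among named genes not called, the value turned to 0.18 for Tnni2 and 0.19 for Tnnt3 with library totals alone, and for Pax7 it was -0.32 without replicate 1 of 60 days, within a range of -0.32 to 0.41 with 1 library left out. The column suffixes that groups share do not pair the libraries by any label, and the deviations of same-numbered libraries of 0 and 60 days correlated at 0.216, -0.0396, -0.00642 and 0.0493. With the suffix as a replicate block 6762 genes were called, 2015 of them at least 2-fold, and 295 were highest and 378 lowest at 60 days; of the named calls that of Plin1 was lost (adjusted p 0.0534). The Plin1 call was also lost without a filter on low counts (0.0627), and that of Chrng with limma-voom (0.0769); that of Chrnb1 was lost without replicate 1 of 60 days (0.0806). Of 27 lymphocyte genes 24 were in the table and 13 had enough counts to be tested; with thinned counts 13 were tested and 7 were higher.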
